A study of Homo sapiens with 6 samples.

Results

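Transcript levels of 10 genes of gp130-STAT3 signaling and of the C/EBP transcription factors were examined in MDA-MB-231 cells after CDK16 knockdown and after rebastinib (Reb) treatment. The genes were IL6ST, IL6R, OSMR, LIFR, JAK1, JAK2, STAT3, SOCS3, CEBPB and CEBPD, each matched by its symbol. All 10 were present among the 41471 gene symbols of the knockdown tables and the 34157 of the Reb tables, and 10 of 10 reached the minimum mean of 1 CPM (counts scaled to the library total) in both experiments. The set was chosen by measured changes in these libraries as well as by pathway membership, and CEBPD was selected on its opposite changes in the 2 experiments. The fold changes below are therefore given as a description, with no test.

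gp130, the product of IL6ST, is the signal-transducing receptor chain shared by the interleukin-6 family of cytokines. IL-6 binds gp130 together with the receptor encoded by IL6R, LIF uses gp130 paired with LIFR, and oncostatin M uses gp130 paired with OSMR or LIFR. The receptor complexes carry Janus kinases such as JAK1 and JAK2, which phosphorylate STAT3, and STAT3 then drives transcription of its inhibitor SOCS3 and of CEBPB and CEBPD. The products of these last genes, C/EBPβ and C/EBPδ, are transcription factors of acute-phase and inflammatory genes, including IL6 itself. In basal-like breast cancer cells, IL-6 and LIF are known to be made by the tumor cells themselves, so the ligand and its receptor can be present in the same culture.

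The MDA-MB-231 line is a long-established human model of triple-negative breast cancer. In the knockdown experiment, cells were infected with lentivirus carrying CDK16-sh1, CDK16-sh2 or a scramble shRNA in a vector with GFP and sorted into stable lines. In the Reb experiment, cells were kept for 48 h with Reb at 1 μM or 5 μM, or with the vehicle DMSO. Reb is a small-molecule kinase inhibitor. Each of the 6 conditions had 1 library of polyadenylated RNA, and the treated libraries of an experiment shared a single control, so that a high or low value in that control moved both of its comparisons together.

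Total counts ranged from 25838443 to 50303269 per library. CDK16 itself had 3223 counts with the scramble shRNA, 1360 with CDK16-sh1 and 846 with CDK16-sh2, which were log2 fold changes of -1.52 and -1.82 on the scale described next. In the Reb experiment CDK16 had 4996 counts in DMSO, 4609 at 1 μM and 2797 at 5 μM. On the same scale its log2 fold changes were -0.14 at 1 μM and 0.27 at 5 μM. At 5 μM the raw count was thus below that of DMSO and the scaled level above it. The library totals were 50303269 counts in DMSO and 37655548 at 5 μM. The summed level of 6 markers that are high in this line ranged from 277 to 1174 RPKM (reads scaled to the length of the gene and to the total of the library), of which VIM made up 177 to 833 RPKM. SPARC, also on that list, went against it in the knockdown experiment, with 14, 15 and 1 counts in the scramble, CDK16-sh1 and CDK16-sh2 libraries against 1925, 1970 and 283 in DMSO, 1 μM and 5 μM Reb, so that it separated the 2 experiments. The summed level of 6 markers that are low or absent in this line was between 3.76 and 6.02 RPKM. That of 4 endothelial markers was between 0.347 and 1.79 RPKM. Of 5 leukocyte markers, 1 to 4 were at 3 counts or fewer, and their sum of 108 to 235 RPKM came almost wholly from CD68, which had 6258 or more counts in every library. LYZ, PTPRC and CD3E were highest at 1 μM Reb, with 130, 35 and 8 counts, against 0 to 8 counts for any of them in the other 5 libraries.

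Levels are given as RPKM, which allow genes to be compared with each other within a library. Log2 fold changes are given on another scale, TMM-scaled CPM, which sets each library by the bulk of its genes and was computed within each experiment. The choice mattered most at 5 μM Reb: the median log2 fold change of all genes was -0.07 with TMM and -0.75 when libraries were scaled by their total counts, and it was -0.60 when mitochondrial transcripts, 7.19% to 16.4% of the counts, were left out of the totals. For CDK16-sh2 these medians were 0.02 with TMM and -0.18 with totals. The ranges after fold changes are 95% exact (Clopper-Pearson) intervals of the counts of the 2 libraries compared. They cover counting error only, since with 1 library per condition no spread between cultures was measured.

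Within the libraries, CEBPB, SOCS3, STAT3, JAK1, IL6ST and OSMR were the abundant members, and CEBPD, LIFR, JAK2 and IL6R the scarce ones. In the scramble library the order ran from SOCS3 (17.1 RPKM), CEBPB (14.3), STAT3 (12.6), JAK1 (11.7), IL6ST (10.8) and OSMR (7.14) to CEBPD (1.47), LIFR (1.08), JAK2 (0.740) and IL6R (0.204 RPKM). In the DMSO library CEBPB led with 23.8 RPKM, while JAK2 (0.863), LIFR (0.848) and IL6R (0.838 RPKM) shared the bottom of the order. After 5 μM Reb the order was led by JAK1 with 17.6 RPKM, and CEBPD (0.610) and JAK2 (0.478 RPKM) were at its end. Fewer cells with a transcript and less of it per cell cannot be told apart in these bulk libraries.

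**Figure D1:**
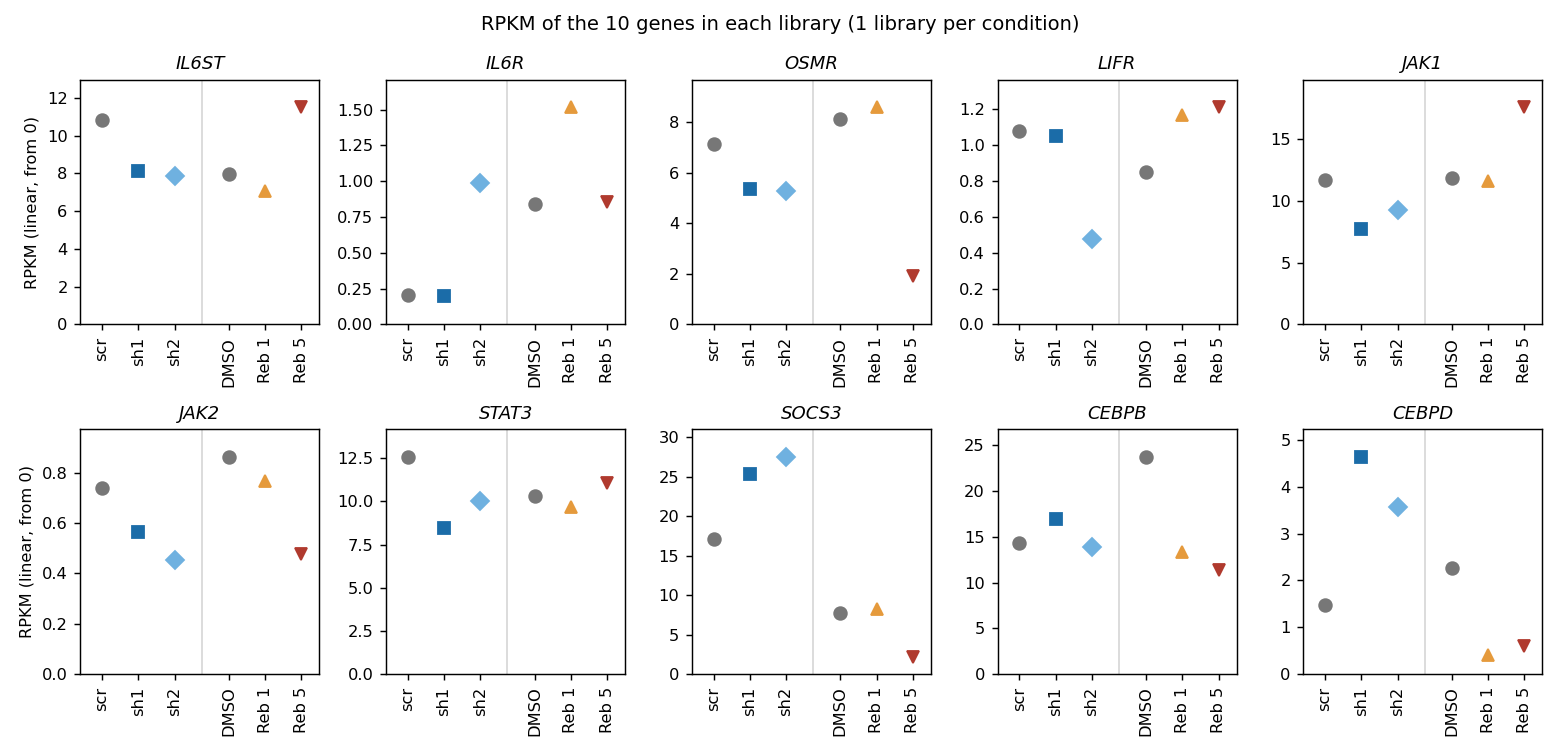
RPKM of each of the 10 genes in the 6 libraries, 1 point per library, with linear axes from 0. The knockdown experiment stands left of the grey line (scr, scramble shRNA) and the Reb experiment right of it (doses in μM), and CEBPD is highest with CDK16-sh1 (4.64 RPKM) and lowest at 1 μM Reb (0.409 RPKM).

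The receptor chains moved apart at 5 μM Reb, where the common chain IL6ST and LIFR were higher than in DMSO and OSMR was lower. None was extreme there: 81.1% of all genes had a lower fold change than IL6ST, 80.7% than LIFR and 19.3% than OSMR. IL6ST, the common chain, is annotated on GRCh38 at chr5:55935095-55994993 on the minus strand with 19 exon blocks. OSMR, the oncostatin M receptor chain, lies at chr5:38845858-38945596 on the plus strand, and LIFR, the LIF receptor chain, at chr5:38474963-38608354 on the minus strand. The start-site regions of these 3 receptor genes are shown because their transcripts are the ones that parted at 5 μM. Each stretch is from RefSeq (GRCh38.p14), 5′ to 3′ on the strand of the gene, and ends at the base before an annotated start, at chr5:55994994-55995213 for IL6ST, chr5:38845762-38845857 for OSMR and chr5:38595406-38595655 for an internal LIFR start. Capitals mark matches to the STAT-type word TTCNNNGAA or to the C/EBP-type word TTNNGNAA on either strand.
IL6ST: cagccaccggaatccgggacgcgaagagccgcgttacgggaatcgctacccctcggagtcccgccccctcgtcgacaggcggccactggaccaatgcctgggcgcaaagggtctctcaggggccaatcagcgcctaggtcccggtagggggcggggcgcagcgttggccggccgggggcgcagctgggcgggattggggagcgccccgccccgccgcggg
OSMR: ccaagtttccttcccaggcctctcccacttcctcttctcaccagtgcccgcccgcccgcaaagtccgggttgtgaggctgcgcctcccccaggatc
LIFR: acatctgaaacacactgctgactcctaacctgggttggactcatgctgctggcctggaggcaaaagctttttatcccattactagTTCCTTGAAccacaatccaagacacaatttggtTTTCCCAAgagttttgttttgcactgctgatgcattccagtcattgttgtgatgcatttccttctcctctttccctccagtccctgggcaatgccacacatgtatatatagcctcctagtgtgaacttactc

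The LIFR stretch holds 1 match of each word, which do not overlap, and the IL6ST and OSMR stretches hold neither. RefSeq windows of 300 bases (250 before and 50 after a start) were at hand for 9 of the 10 genes, 18 windows in all. Of these, 2 windows, both of LIFR, held TTCNNNGAA, a word found in 7.66% of all 35116 windows. The word TTNNGNAA was present in 6 of the 18 and in 36.8% of all windows. The OSMR window holds 1 match of it, outside the shorter OSMR stretch shown. The LIFR stretch belongs to 1 of 3 LIFR windows, and the window at chr5:38556597-38556896 holds neither word. A match describes the letters only.

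IL6ST had 2602 counts with the scramble shRNA (10.8 RPKM), 2412 with CDK16-sh1 (8.12) and 2011 with CDK16-sh2 (7.87 RPKM). It had 3713 counts in DMSO (7.94 RPKM), 3242 at 1 μM Reb (7.07) and 4031 at 5 μM (11.5 RPKM). The 5 μM library was thus the highest of its experiment, and the scramble library the highest of the other. On the TMM scale the log2 fold change at 5 μM was 1.23 (1.16 to 1.29), a 2.34-fold higher level. It stayed positive but below 2-fold with library totals (0.54), with totals free of mitochondrial transcripts (0.69) and after removal of the trend on GC content and gene length (0.84). At 1 μM the log2 fold change was -0.22 (-0.29 to -0.15). With CDK16-sh2 it was -0.26, and with CDK16-sh1 it was -0.39, or 0.22 after removal of that trend.

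IL6R encodes the ligand-binding receptor of IL-6 and lies at chr1:154405193-154469450. It was the scarcest member in the scramble library, with 34 counts, and it had 41 counts with CDK16-sh1 and 175 with CDK16-sh2. In the Reb experiment it had 272 counts in DMSO, 484 at 1 μM and 207 at 5 μM. The hairpins thus parted on this gene, and CDK16-sh2 stood alone in its experiment. Its log2 fold change was 2.41 (1.93 to 3.05) with CDK16-sh2, 5.30-fold, above that of 99.99% of all genes in that comparison, and -0.01 (-0.70 to 0.69) with CDK16-sh1. Between the hairpin libraries it was 2.41 (1.98 to 3.00). With Reb the values were 0.80 (0.59 to 1.03) at 1 μM and 0.71 (0.45 to 0.98) at 5 μM, and the latter became 1.02 with the GC and length trend removed and 0.02 with library totals. IL6R is also a leukocyte gene, and the 1 μM library was the one with 130 counts of LYZ and 35 of PTPRC, whose part in its 484 counts of IL6R was not tested.

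The controls of the 2 experiments also differed in IL6R. With all 6 libraries scaled together, it had 1.15 CPM in the scramble library and 5.08 CPM in DMSO, a log2 difference of 2.10, so that the CDK16-sh2 library lay only 0.31 above DMSO. The experiments were tabulated separately, and 25.1% of 15782 genes differed at least 2-fold between these controls.

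OSMR had 1324, 1232 and 1039 counts in the scramble, CDK16-sh1 and CDK16-sh2 libraries (7.14, 5.37 and 5.27 RPKM). It had 2929 counts in DMSO (8.12 RPKM), 3050 at 1 μM (8.61) and 519 at 5 μM (1.92 RPKM). Of the 4 treated libraries, only that of 5 μM was at least 2-fold from its control, with a log2 fold change of -1.39 (-1.53 to -1.25), 2.61-fold lower. The value was -2.08 with library totals and -1.37 after trend removal. At 1 μM the log2 fold change was 0.03 (-0.04 to 0.11), and it was -0.38 with CDK16-sh1 and -0.24 with CDK16-sh2.

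LIFR had 331 counts in the scramble library, 399 with CDK16-sh1 and 156 with CDK16-sh2, and 506, 683 and 542 counts in DMSO, 1 μM and 5 μM Reb. CDK16-sh2 was the low library of the knockdown experiment, with a log2 fold change of -0.97 (-1.26 to -0.70) that lay just short of 2-fold, and the value was -1.17 with library totals and -0.64 after trend removal. With CDK16-sh1 the log2 fold change was -0.01 (-0.22 to 0.21), and 0.64 after trend removal. With Reb it was 0.41 (0.24 to 0.58) at 1 μM and 1.20 (1.03 to 1.39) at 5 μM, the latter 0.52 with totals and 0.77 after trend removal. LIFR-AS1, annotated on the opposite strand, had at most 7 counts in any library.

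Ratios between members within a library do not depend on how libraries are scaled. OSMR per IL6ST, in RPKM, was 0.659 in the scramble library, 0.662 with CDK16-sh1 and 0.669 with CDK16-sh2, values whose counting intervals overlapped. After removal of the trend on GC content and length the pair parted, with log2 fold changes of -0.12 for OSMR and 0.22 for IL6ST with CDK16-sh1, and -0.19 and 0.00 with CDK16-sh2. The ratio was 1.02 in DMSO, 1.22 at 1 μM and 0.167 at 5 μM, a log2 change of -2.62 at the higher dose. OSMR per LIFR went from 9.57 in DMSO to 7.38 at 1 μM and 1.58 at 5 μM. LIFR per IL6ST was 0.107 in DMSO and 0.105 at 5 μM, but 0.165 at 1 μM, and it was 0.0996, 0.130 and 0.0608 in the scramble, CDK16-sh1 and CDK16-sh2 libraries. IL6R per IL6ST was 0.0188, 0.0245 and 0.125 in those 3 libraries, and 0.105, 0.215 and 0.0739 in DMSO, 1 μM and 5 μM Reb.

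**Figure D2:**
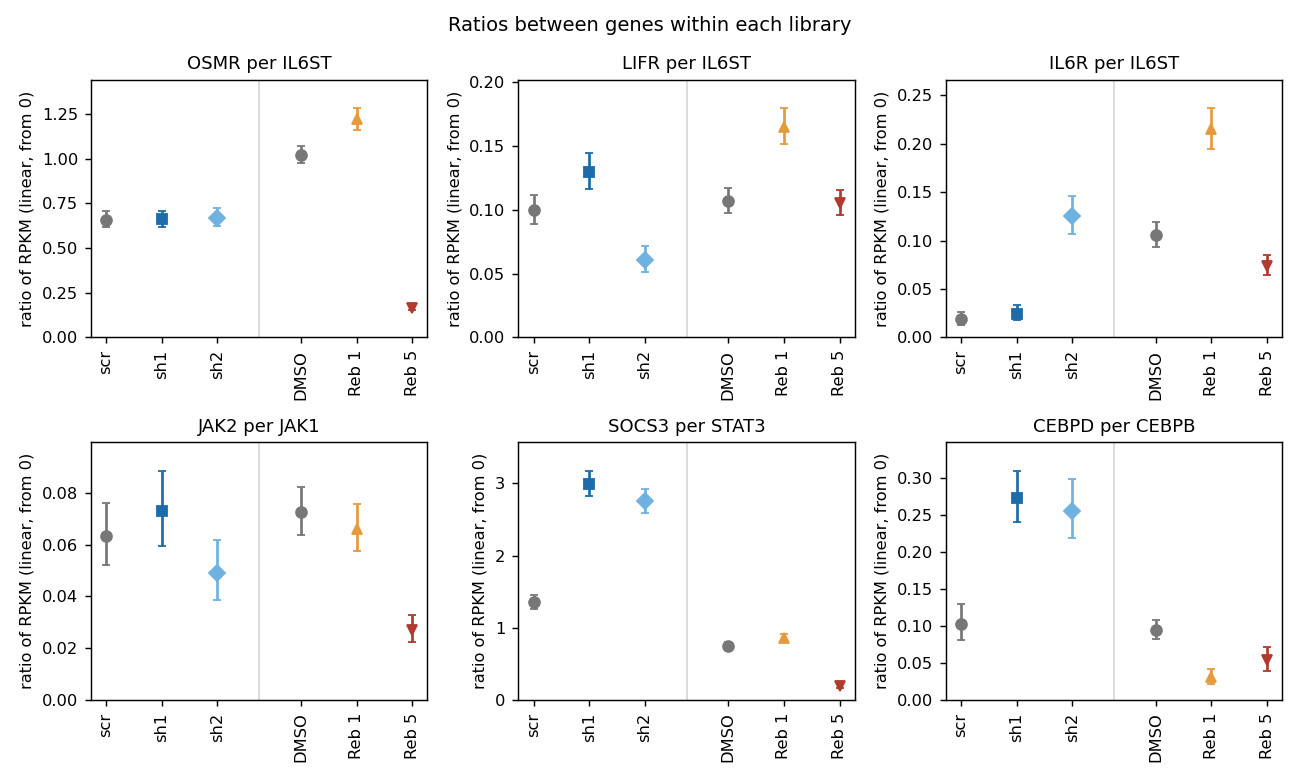
Ratios of RPKM between pairs of members within each library, on linear axes from 0, with bars for the 95% exact counting interval. OSMR per IL6ST is near 0.66 in the 3 knockdown libraries and is 0.167 at 5 μM Reb against 1.02 in DMSO, and SOCS3 per STAT3 is 2.99 and 2.75 with the hairpins against 1.35 in the scramble library.

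The kinases also stood apart from each other at 5 μM, where JAK1 was higher than in DMSO and JAK2 was not. JAK1, the kinase most tied to gp130, lies at chr1:64833229-64966504 and had 1911, 1560 and 1606 counts in the scramble, CDK16-sh1 and CDK16-sh2 libraries. It had 3784 counts in DMSO, 3624 at 1 μM and 4196 at 5 μM. The 5 μM library was the high one, with a log2 fold change of 1.26 (1.19 to 1.32), or 0.57 with library totals and 0.72 without mitochondrial transcripts. The other JAK1 values were -0.57 (-0.67 to -0.47) with CDK16-sh1, -0.14 with CDK16-sh2 and -0.09 at 1 μM. JAK2, on chromosome 9 from 4984390 to 5128183, was scarce, with 118, 111 and 77 counts in the knockdown experiment and 268, 234 and 111 in the Reb experiment. Its log2 fold changes lay between -0.50 (CDK16-sh2) and -0.16 (5 μM Reb), and all but that of CDK16-sh2 had an interval that included 0. That of CDK16-sh1 was -0.36, or 0.11 after trend removal. That of 5 μM Reb was -0.84 with library totals and -0.70 without mitochondrial transcripts, both below its counting interval (-0.50 to 0.16). JAK2 per JAK1 was 0.0725 in DMSO, 0.0661 at 1 μM and 0.0271 at 5 μM.

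STAT3, the transcription factor that the kinases act on, lies at chr17:42313324-42388568 on the minus strand. It had 2868 counts in the scramble library, 2384 with CDK16-sh1 and 2424 with CDK16-sh2 (12.6, 8.47 and 10.0 RPKM). In DMSO, 1 μM and 5 μM Reb it had 4570, 4200 and 3678 counts (10.3, 9.65 and 11.1 RPKM). No library was 2-fold from its control: the log2 fold changes were -0.54 (-0.62 to -0.46), -0.14 (-0.21 to -0.06), -0.15 (-0.21 to -0.08) and 0.79 (0.73 to 0.86). At 5 μM the value ranged from 0.10 with library totals to 1.10 after trend removal. The counts describe the transcript and hold no measure of STAT3 phosphorylation.

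SOCS3, the feedback inhibitor that binds gp130 and JAKs, lies at chr17:78356778-78360077 on the minus strand. It was high with both hairpins, with 1205 counts in the scramble library (17.1 RPKM), 2213 with CDK16-sh1 (25.3) and 2070 with CDK16-sh2 (27.5 RPKM). In the Reb experiment it had 1067 counts in DMSO (7.76 RPKM), 1114 at 1 μM (8.25) and 228 at 5 μM (2.21 RPKM). The log2 fold changes were 0.60 (0.50 to 0.70) with CDK16-sh1, 0.89 (0.78 to 0.99) with CDK16-sh2, 0.04 (-0.08 to 0.16) at 1 μM and -1.11 (-1.33 to -0.91) at 5 μM. SOCS3 was thus 1.52-fold and 1.85-fold higher with the hairpins and 2.17-fold lower at the high dose. The controls differed in SOCS3 too. With all 6 libraries scaled together it had 40.6 CPM in the scramble library and 19.9 CPM in DMSO, where it was lower by a log2 difference of -1.03.

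SOCS3 per STAT3 was 1.35, 2.99 and 2.75 in the scramble, CDK16-sh1 and CDK16-sh2 libraries, log2 changes of 1.14 and 1.02. It was 0.753 in DMSO, 0.855 at 1 μM and 0.200 at 5 μM, a log2 change of -1.91. The GC content of the transcript moved with these values, since SOCS3 (60.0% GC), CEBPB (66.2%) and CEBPD (70.0%) are among the genes richest in GC while IL6ST, LIFR and JAK2 are among the poorest, when genes are cut into 5 equal groups by GC. The median log2 fold change from the group lowest in GC to the highest went from -0.41 to 0.42 with CDK16-sh1, from -0.13 to 0.11 with CDK16-sh2, from 0.15 to -0.19 at 1 μM and from 0.43 to -0.52 at 5 μM. With that trend and the one on length removed, SOCS3 had 0.10 with CDK16-sh1, 0.73 with CDK16-sh2, 0.21 at 1 μM and -0.75 at 5 μM. The part of base composition in the counts was not tested beyond this.

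CEBPB is a gene of 1 exon block at chr20:50190734-50192689. It had 722, 1061 and 746 counts in the scramble, CDK16-sh1 and CDK16-sh2 libraries (14.3, 17.0 and 13.9 RPKM), and 2338, 1284 and 837 counts in DMSO, 1 μM and 5 μM Reb (23.8, 13.3 and 11.4 RPKM). The DMSO library was the highest of all 6. The log2 fold change at 1 μM was -0.89 (-0.99 to -0.79), 1.85-fold lower, or -0.65 after removal of the trend on GC content and length. At 5 μM it was -0.37 (-0.49 to -0.26), or -1.06 with library totals. With the hairpins it was 0.28 and 0.15, and these signs turned to -0.42 for CDK16-sh1 after trend removal and to -0.04 for CDK16-sh2 with library totals. CEBPB-AS1, on the opposite strand, had 144, 199 and 130 counts in the knockdown libraries and 659, 425 and 260 in the Reb libraries. Whether the authors' counting used the strand is not given in the sources used here, so reads of CEBPB and of this antisense transcript may not be fully told apart.

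CEBPD, a gene of 1 exon block on chromosome 8 of GRCh38 from 47736909 to 47739086, was at least 2-fold higher with both hairpins and at least 2-fold lower at both Reb doses. It had 83 counts in the scramble library (1.47 RPKM), 323 with CDK16-sh1 (4.64) and 213 with CDK16-sh2 (3.56 RPKM). In the Reb experiment it had 248 counts in DMSO (2.26 RPKM), 44 at 1 μM (0.409) and 50 at 5 μM (0.610 RPKM). The log2 fold changes were 1.66 (1.33 to 2.05) and 1.45 (1.09 to 1.85) with the hairpins, 3.16-fold and 2.72-fold, and -2.45 (-3.02 to -2.05) and -1.18 (-1.67 to -0.76) with Reb, 5.48-fold and 2.27-fold lower. The lower dose thus had the larger change, and 5 μM stood above 1 μM by a log2 fold change of 1.27 (0.70 to 1.93). The difference between the doses depends on the scaling, since the counts themselves were 44 and 50.

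These values were the basis of the choice of CEBPD. After removal of the trend on GC content and length the CEBPD log2 fold changes were 0.88, 1.37, -2.19 and -1.25, so that the value for CDK16-sh1 went below 2-fold and the directions stayed. In the joint scaling of all 6 libraries, DMSO was 0.72 higher than the scramble shRNA on the log2 scale. The hairpin libraries were still above DMSO by 0.94 and 0.72, and the Reb libraries below the scramble shRNA by 1.71 and 0.46. CEBPD per CEBPB was 0.103, 0.273 and 0.256 in the scramble, CDK16-sh1 and CDK16-sh2 libraries, and 0.0953, 0.0308 and 0.0536 in DMSO, 1 μM and 5 μM Reb, so the relation between the pair also differed.

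**Figure D3:**
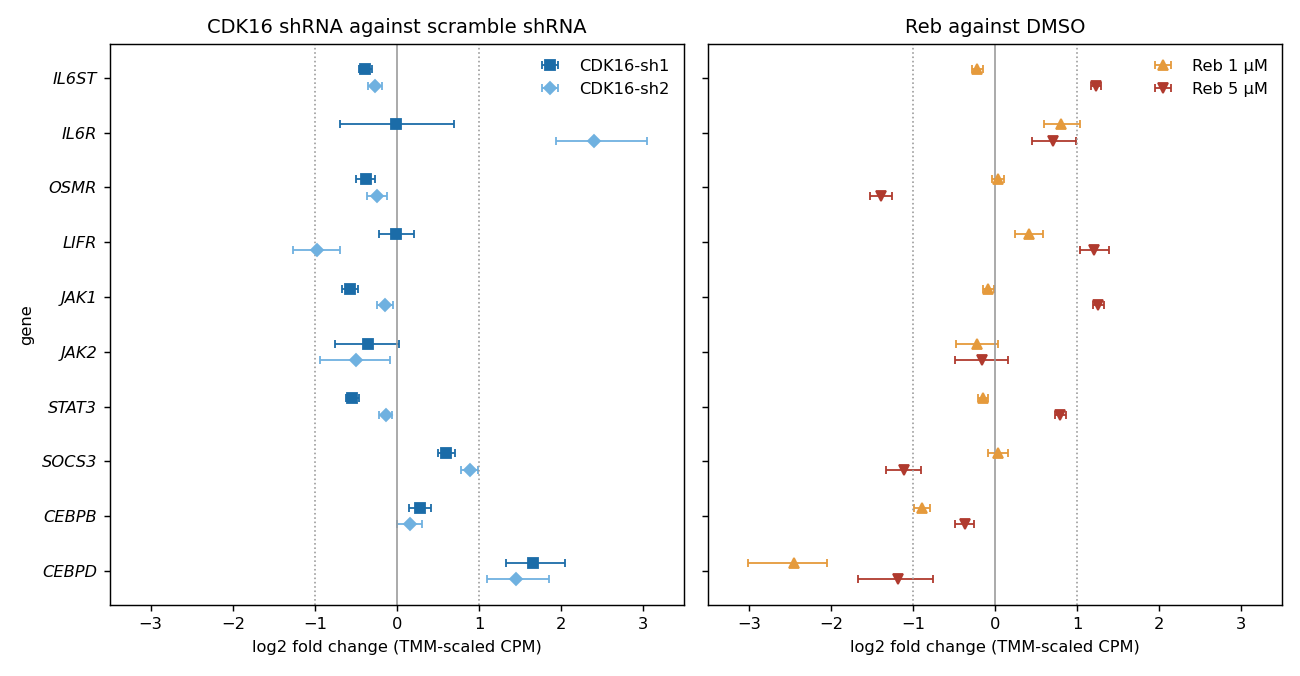
Log2 fold change of each gene against its own control on TMM-scaled CPM, 1 point per treated library, with bars for the 95% exact counting interval and dotted lines at 2-fold. CEBPD lies beyond 2-fold to the right with both hairpins (1.66 and 1.45) and to the left with both doses (-2.45 and -1.18), and IL6R stands at 2.41 with CDK16-sh2.

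Among all 14410 genes that passed the minimum in both experiments, 5 genes, 0.0347%, were at least 2-fold higher with both hairpins and lower at both doses. They were CEBPD, CSF3, CTC-378H22.2, TRAF1 and ZSWIM4, and CEBPD was the only one of the 10 genes among them. A further 5 genes had the opposite pattern. Since the rule used these contrasts, nothing is read from the count.

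With CDK16-sh1, 1 of the 10 members (CEBPD) was at least 2-fold higher, beside 4.33% of all genes, and 0 were lower, beside 6.86%. With CDK16-sh2, 2 members (CEBPD and IL6R) were at least 2-fold higher, beside 2.20% of all genes, and 0 were lower, beside 7.62%. At 1 μM Reb, 1 member (CEBPD) was at least 2-fold lower, beside 1.92% of all genes, and 0 were higher, beside 1.28%. At 5 μM, 3 members were lower (OSMR, CEBPD and SOCS3), beside 27.2% of all genes, and 3 were higher (JAK1, IL6ST and LIFR), beside 23.6%. The 5 μM counts are close to those shares. The median log2 fold change of the 10 members was -0.18, -0.14, -0.12 and 0.27 in the 4 treated libraries, and that of all genes was 0.00, 0.02, 0.00 and -0.07.

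**Figure D4:**
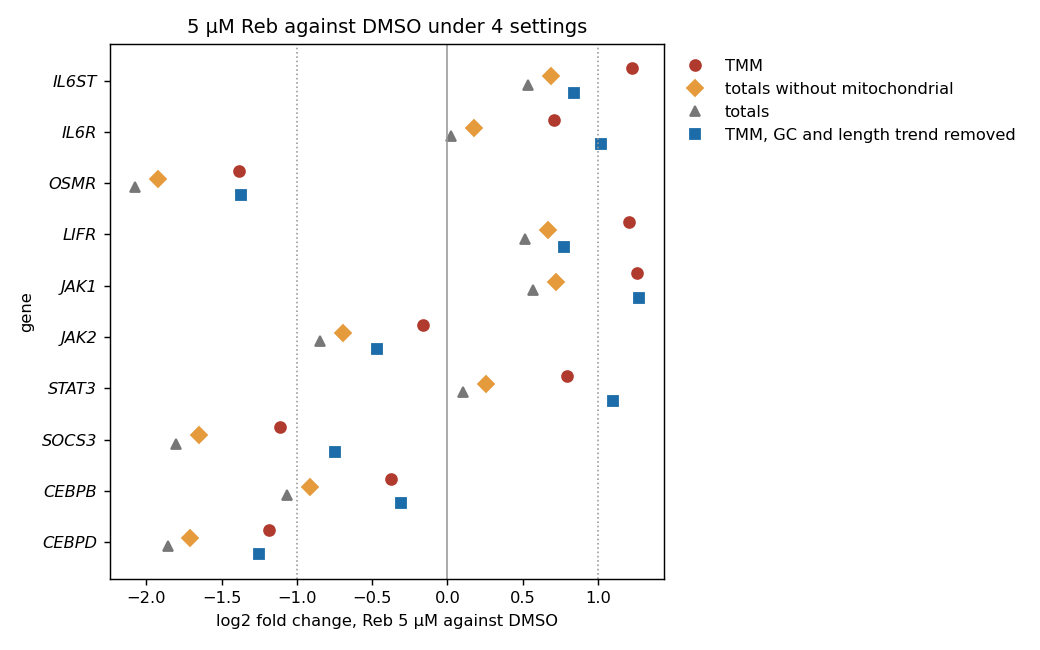
Log2 fold change of each gene at 5 μM Reb against DMSO under 4 settings, with dotted lines at 2-fold. OSMR and CEBPD stay beyond 2-fold lower in all 4, whereas IL6ST, LIFR and JAK1 are past 2-fold with TMM (1.23, 1.20 and 1.26) and at 0.54, 0.52 and 0.57 with library totals.

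The other genes of the pathway were taken as 7 lists of 85 genes, of which 65 passed the minimum in each experiment. At least 2-fold from the control were 9 genes with CDK16-sh1 (0 lower and 9 higher), 13 with CDK16-sh2 (10 lower and 3 higher), 15 at 1 μM Reb (15 lower and 0 higher) and 35 at 5 μM (21 lower and 14 higher). As shares of the 65 lower and higher, these were 0% and 13.8% with CDK16-sh1 beside 6.86% and 4.33% of all genes, and 15.4% and 4.62% with CDK16-sh2 beside 7.62% and 2.20%. The shares were 23.1% and 0% at 1 μM beside 1.92% and 1.28%, and 32.3% and 21.5% at 5 μM, near the 27.2% and 23.6% of all genes. The median log2 fold changes of the 65 were 0.25, -0.07, -0.23 and -0.31. All these values are on the TMM scale, and with library totals 41 genes rather than 35 were past 2-fold at 5 μM.

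Of 8 expressed ligands and ligand subunits, 2 were at least 2-fold higher with CDK16-sh1, 2 were lower with CDK16-sh2, 2 were lower at 1 μM, and 4 were lower and 2 higher at 5 μM. The shares of all genes for these counts were 4.33%, 7.62%, 1.92%, 27.2% and 23.6%, and the last is close to the 2 of 8. IL6 had 81 counts in the scramble library, 753 with CDK16-sh1 and 149 with CDK16-sh2, and 1800, 95 and 356 counts in DMSO, 1 μM and 5 μM Reb. Its log2 fold changes were 2.91 (2.61 to 3.29), 0.97 (0.59 to 1.39), -4.23 (-4.58 to -3.97) and -1.23 (-1.40 to -1.07), so that IL6 had the same 4 directions as CEBPD but was just under 2-fold with CDK16-sh2. The controls differed here as well, with 2.73 CPM in the scramble library and 33.6 CPM in DMSO in the joint scaling, a log2 difference of 3.60. The CDK16-sh1 and 1 μM libraries, which lay on opposite sides of their own controls, were 0.69 below DMSO and 0.61 below the scramble shRNA on that scale.

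IL11, which signals through its own receptor chain and gp130, had 655, 2311 and 333 counts in the knockdown libraries and 3139, 326 and 86 in the Reb libraries. The hairpins stood on either side of the scramble shRNA, at 1.54 and -0.87, and both doses were lower, at -3.28 and -4.06. LIF, the ligand of LIFR, was abundant in both controls, with 1798, 2870 and 1951 counts and 2282, 1979 and 159 counts. Its log2 fold change was -2.73 (-2.98 to -2.50) at 5 μM and between -0.23 and 0.40 in the other 3. OSM, the ligand of OSMR, had 0 or 1 counts in every library. CNTF had 277 counts at 5 μM and 77 in DMSO (log2 fold change 2.92), and its reads may be shared with a read-through transcript of the neighbouring gene.

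**Figure D5:**
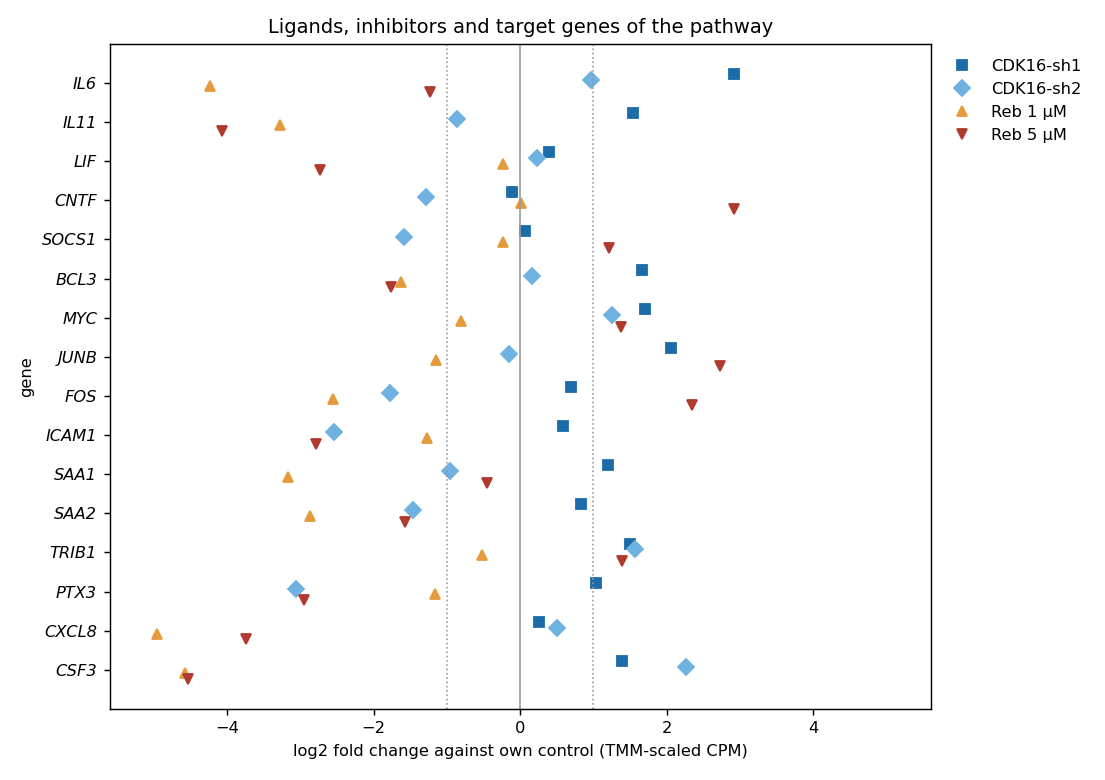
Log2 fold change against its own control, on TMM-scaled CPM, of the ligands, inhibitors and target genes named by the rule, 1 point per treated library, with dotted lines at 2-fold. CSF3 and IL6 lie right of 0 with both hairpins and left of 0 at both doses, and OSM, with 0 or 1 counts, is not drawn.

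In the list of the other JAK and STAT genes, 6 were expressed, 0 of them were past 2-fold with either hairpin or at 1 μM, and 5 were lower at 5 μM, beside 27.2% of all genes. Among them were STAT5A (-3.06), STAT6 (-2.10), STAT2 (-1.90) and TYK2 (-1.16), which were named after their values were seen. On the TMM scale these stood opposite to STAT3 (0.79) and JAK1 (1.26) in that library. With library totals STAT3 was at 0.10 there, close to its control, and JAK1 at 0.57. Of 3 other receptor chains of the family, only IL11RA was past 2-fold in any library, with 89 counts in DMSO and 16 at 5 μM (-1.31).

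Among the SOCS, PIAS and phosphatase inhibitors, 13 were expressed in the Reb experiment, of which 2 were at least 2-fold lower and 5 higher at 5 μM, beside 27.2% and 23.6% of all genes, and 0 were past 2-fold at 1 μM. SOCS3 was on the lower side in that library, while SOCS5 (342 counts in DMSO, 2515 at 5 μM, log2 fold change 3.98) and SOCS6 (597 and 1948 counts, 2.81) were higher, both named after their values were seen. SOCS1 had 91, 116 and 27 counts in the knockdown libraries and 19, 16 and 22 in the Reb libraries, with -1.58 (-2.32 to -1.01) for CDK16-sh2 against SOCS3 at 0.89.

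Of 19 expressed STAT3 target genes, 4 were at least 2-fold higher with CDK16-sh1 and 0 lower, beside 4.33% and 6.86% of all genes, and 1 was higher and 6 were lower with CDK16-sh2, beside 2.20% and 7.62%. At 1 μM Reb 7 were lower and 0 higher, beside 1.92% and 1.28% of all genes. At 5 μM 5 were lower and 5 higher, 26.3% each, about the 27.2% and 23.6% of all genes. MYC, a growth-promoting transcription factor, was higher with both hairpins (1.71 and 1.26) and at 5 μM (1.38) and had -0.80 at 1 μM. Its RPKM, which is scaled by library totals, was 32.8 in DMSO and 52.9 at 5 μM, less than 2-fold apart. BCL3, a co-regulator of NF-κB, had 1.66, 0.16, -1.62 and -1.76. JUNB and FOS, subunits of AP-1, had opposite signs at the 2 doses, with -1.15 and 2.72 for JUNB and -2.56 and 2.34 for FOS. With CDK16-sh1 and CDK16-sh2 JUNB had 2.06 and -0.16, and FOS 0.69 and -1.77.

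The acute-phase genes SAA1 and SAA2, whose sequences are so alike that reads may be split between them, were lowest at 1 μM, at -3.16 and -2.87. The values at 5 μM were -0.45 and -1.57. With the hairpins they were 1.20 and -0.95 for SAA1 and 0.83 and -1.46 for SAA2. ICAM1, an adhesion receptor, had 0.59, -2.54, -1.27 and -2.78 in the 4 treated libraries.

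C/EBP target genes were lower at 1 μM in 6 of 9 expressed, beside the 1.92% of all genes, and 0 were higher. At 5 μM 4 were lower and 0 higher, beside 27.2% and 23.6% of all genes. Of 8 expressed in the knockdown experiment, 2 were higher with CDK16-sh1, beside 4.33%, and 1 was higher and 1 lower with CDK16-sh2, beside 2.20% and 7.62%. CXCL8, the neutrophil chemokine, had 4967 counts in DMSO, 160 at the low dose and 172 at the high dose, with log2 fold changes of -4.96 and -3.74. CSF3, the granulocyte growth factor, had 114, 365 and 517 counts in the knockdown libraries and 1247, 51 and 24 in the Reb libraries, with values of 1.39, 2.27, -4.57 and -4.53. PTX3, a soluble pattern-recognition protein, had 1.04 with CDK16-sh1 and -3.06 with CDK16-sh2, and -1.16 and -2.94 with Reb. These lists were written with earlier results of these data known, and nothing particular to them is read from the counts.

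Of 7 expressed C/EBP relatives and regulators, TRIB1, a pseudokinase that promotes degradation of C/EBPα, was past 2-fold higher with both hairpins (1.56 with CDK16-sh2). On the TMM scale it was also past 2-fold higher at 5 μM (1.39), with -0.52 at 1 μM. In RPKM it had 2.75 in DMSO and 4.47 at 5 μM, less than 2-fold apart. CEBPG, the only other one past 2-fold in any library, had 4.11 at 5 μM and was named after its value was seen. The 1 of 7 higher with each hairpin stands beside 4.33% and 2.20% of all genes. The 2 of 7 higher at 5 μM, 28.6%, are near the 23.6% of all genes.

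The genes with the pattern most like that of CEBPD over the 4 log2 fold changes, by Euclidean distance among the 10554 genes that averaged 5 CPM or more in both experiments, were G0S2 (distance 1.33), ZC3H12A (1.35), BCL3 (1.64), XXbac-BPG116M5.17 (1.70) and TNIP1 (1.75), against a median distance of 3.73. ZC3H12A, an RNase that degrades inflammatory transcripts such as IL6, had 1.61 and 1.22 with the hairpins and -1.48 and -0.27 with Reb. G0S2, an inhibitor of lipolysis that is also on the C/EBP target list, had 0.49, 0.86, -2.38 and -0.98. The genes nearest to SOCS3 were TMEM189 (0.150), C14orf79 (0.161), MRM3 (0.194), SPAG7 (0.243) and LAMTOR4 (0.246), against a median of 1.97. The distances of the 2 genes are not compared, since CEBPD was selected on large changes in these contrasts.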

How the data were processed

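The deposited read counts, whole numbers per gene symbol that the authors left unnormalized, were used for all fold changes. The authors' RPKM values, the same counts divided by gene length and library total, were used as deposited for levels and ratios. Per the labels, the libraries were stranded mRNA libraries, and the submitters' processing notes name Trimmomatic, featureCounts, Subread 1.5.1 and GRCh38. The aligner, its settings, the annotation release and the strand setting are not given in the sources used here. The tables hold no column of the authors' comparisons that was used.

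Genes that averaged 1 CPM or more in an experiment were kept, 15295 and 15655, and scaled by TMM in R 4.3.3 with edgeR 4.0.16, with a prior count of 2. DESeq2 1.42.0 size factors were an alternative. The fold threshold of 2 is that of the study's methods. Its false discovery rate needs replicates, so no test was run. The GC content, from GENCODE 29 transcripts, was known for 99.1% of the kept genes, and trends on it and on length were removed by lowess (span 0.3). The fold-change code was tested on simulated data with a small set of genes changed, as many up as down, and counting noise only. That setting is unlike 5 μM Reb, where 27.2% of all genes were at least 2-fold lower and 23.6% higher. It therefore cannot tell which scaling is right there. The members, the pathway lists and the rule for named genes were chosen with earlier results of these data known. Named were all members, pathway genes at least 2-fold the same way in both treated libraries of an experiment or opposite ways in the 2 experiments, and IL6, IL11, LIF, OSM and SOCS1 whatever their values. Also named were the 5 genes nearest in pattern to CEBPD and to SOCS3. Genes outside this rule were named after their values were seen, as were G0S2 and the antisense transcripts. Some list genes are counted but not reported here by name.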

Additional observations from a re-analysis of the deposited data

How the results depend on the processing

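Each count of genes past 2-fold was recomputed under 11 alternatives, and 77 of 88 recomputed counts were within 1.5 times the reported count. This compares the size of the count only, not which genes it holds or their direction. Among the members, CDK16-sh1 had 1 gene past 2-fold, but 0 with the trend on GC content and length removed and 2 at a threshold of 1.5-fold. CDK16-sh2 had 2 and 4 at 1.5-fold. At 1 μM Reb there was 1, but 0 with a minimum mean of 5 CPM, which CEBPD did not reach, and 3 at 1.5-fold. At 5 μM there were 6, but 3 with library totals free of mitochondrial transcripts. With library totals there were 4, and the genes differed. They were OSMR (-2.08), CEBPD (-1.86), SOCS3 (-1.80) and CEBPB (-1.06), all lower, while IL6ST, LIFR and JAK1 fell below 2-fold. Among the other pathway genes, CDK16-sh1 had 9 past 2-fold, but 14 with no filter on low counts and 27 at 1.5-fold. CDK16-sh2 had 13, but 20 with no filter, 8 with a minimum mean of 5 CPM and 25 at 1.5-fold. The causes were not tested except where the setting itself removes or adds genes. Of 392 recomputed log2 fold changes of members, 316 stayed within the counting interval of the reported value, and none past 2-fold changed sign. The settings differed widely in this. With either other prior count 40 of 40 stayed, but 24 of 40 with library totals. With the GC and length trend removed 20 of 40 stayed, 5 changed sign and 4 fell below 2-fold. No paired analysis was possible because each condition had 1 library. Counts as small as the 44 and 50 of CEBPD with Reb and the 34 of IL6R with the scramble shRNA limit the precision, and no spread between cultures was measured.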
